A study of Homo sapiens with 40 samples.

Results

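Genes of histone-modifying enzymes were followed in 4 established cell lines derived from mantle cell lymphoma, which is a cancer of B cells, through 24 h of exposure to OTX015. OTX015 is a small molecule that keeps BET proteins, readers of histone acetylation, from binding acetyl-lysine. The genes were chosen by symbol from the array's annotation, matched through Entrez ids, and comprised the HDAC, SIRT, KDM, KMT, SETD and PRMT families, the numbered KAT genes, and EZH1, EZH2, EP300, CREBBP, DOT1L, NSD1, NSD2 and NSD3. Of 20046 named genes on the array, 79 met this rule, among them 2 non-coding genes, KDM7A-DT and KMT2E-AS1. A probe detected on at least 4 of the 40 arrays was found for 73 of the 79, of 13740 such genes in all. HDAC4, KDM1B, KMT2D, KMT2E-AS1, PRMT8 and SETD7 were detected on at most 3 arrays and were not tested.

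The 10 groups were OTX015 at 2, 4, 8, 12 and 24 h and DMSO, its vehicle, at 2, 4, 8, 12 and 24 h, each with 1 array of GRANTA519, JEKO1, MAVER1 and REC1. Every line is thus 1 cell population that stands for 1 replicate of each group, and each of the 20 OTX015 arrays is paired with the DMSO array that shares its line and time. The labels state neither the dose nor whether the times of a line were separate cultures, so the spread between times may be technical. Levels below are normalised signals on the log2 scale, and differences are OTX015 minus DMSO in log2 units, as mean ± SD of the 4 lines (n = 4) unless another spread is named. A gene is said to have risen, fallen or changed where its p-value from limma, adjusted over all 13740 genes, lay under 0.05.

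Histone acetyltransferases place acetyl groups on histone tails, and histone deacetylases and sirtuins remove them. Lysine methyltransferases and demethylases add and remove methyl groups at residues that mark active promoters and gene bodies (H3K4, H3K36, H3K79) or silent chromatin (H3K9, H3K27, H4K20), and PRMT enzymes methylate arginine. BET proteins bind acetylated histones, so the acetyltransferases, deacetylases and sirtuins write and erase the mark that OTX015 keeps BET proteins from reading. EZH2, KMT2D, NSD2 and CREBBP are among the chromatin genes mutated in B cell lymphomas.

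The B cell identity of the lines was visible on the arrays. Of the B cell markers CD79A, CD79B and CD74 were detected on 10 of 10 arrays of every line, MS4A1 and CD22 on at least 8, and PAX5 on 0. SOX11 was detected on 10 of 10 arrays of each line, whereas CCND1, which encodes cyclin D1, was detected on 10 arrays of GRANTA519 and of MAVER1, 5 of REC1 and 0 of JEKO1. Of the 8 T and NK cell markers, CD3D was detected on 10 arrays of REC1 and 0 of the other lines, CD7 on 6 of JEKO1 and 2 of GRANTA519, and each of the others on at most 3 of any line. Of the 8 myeloid markers, CD14 was detected on 9 arrays of GRANTA519, JEKO1 and MAVER1 and on 10 of REC1, ITGAM on 10 of GRANTA519 and 4 of MAVER1, LYZ on 2 to 5 of every line, and each of the others on at most 3. All 5 B cell markers that were tested fell with OTX015, by -0.26 (CD74) to -1.0 (MS4A1), whereas SOX11 rose by 0.44 ± 0.18 (limma adjusted p = 0.00902). The T cell and myeloid markers that were tested did not pass. Their part in the results below was not tested.

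Over all times the comparison asks which of these genes differed between OTX015 and DMSO irrespective of time. Of the 73 genes, 15 rose (20.5%) and 13 fell (17.8%), against 14.5% and 14.4% of all genes tested. The largest rises were those of SIRT1 and KDM3A, a deacetylase and an H3K9 demethylase, and the largest falls those of SETDB1, PRMT6 and KAT2A, which methylate H3K9, methylate arginine and acetylate H3. The changes were moderate. A change of at least 1.5-fold was seen in 5 of the 28 genes (6.85% of the 73, against 7.95% of all genes), and one of at least 2-fold in 0. The count of 5 depends on the background, and was 1, that of SIRT1, without background correction, with an offset of 50 in place of 16 or with the authors' series matrix. Over the alternatives the rise of KDM3A ran between 0.31 and 0.77, the fall of SETDB1 between -0.80 and -0.42 and the rise of PRMT2 between 0.30 and 0.62. SIRT7 ran between 0.18 and 0.43, SIRT4 between 0.20 and 0.64, KAT2B between 0.24 and 0.52, KMT5B between -0.64 and -0.37, KAT5 between -0.46 and -0.15, and HDAC7 between -0.59 and -0.12. The median difference was 0.02 over the 73 genes and 0.0058 over all genes, and the median absolute difference was 0.19 over the 73 genes and 0.15 over all genes. Fewer cells that hold a transcript and less of it per cell cannot be told apart in these bulk samples. The 15 rises numbered 9 without GRANTA519, 7 without MAVER1 and 9 without REC1, and the 13 falls numbered 8 without MAVER1. Leaving out a line or a time, here and below, leaves fewer values for the test of every gene. The matching counts over all genes are not given.

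**Figure D1:**
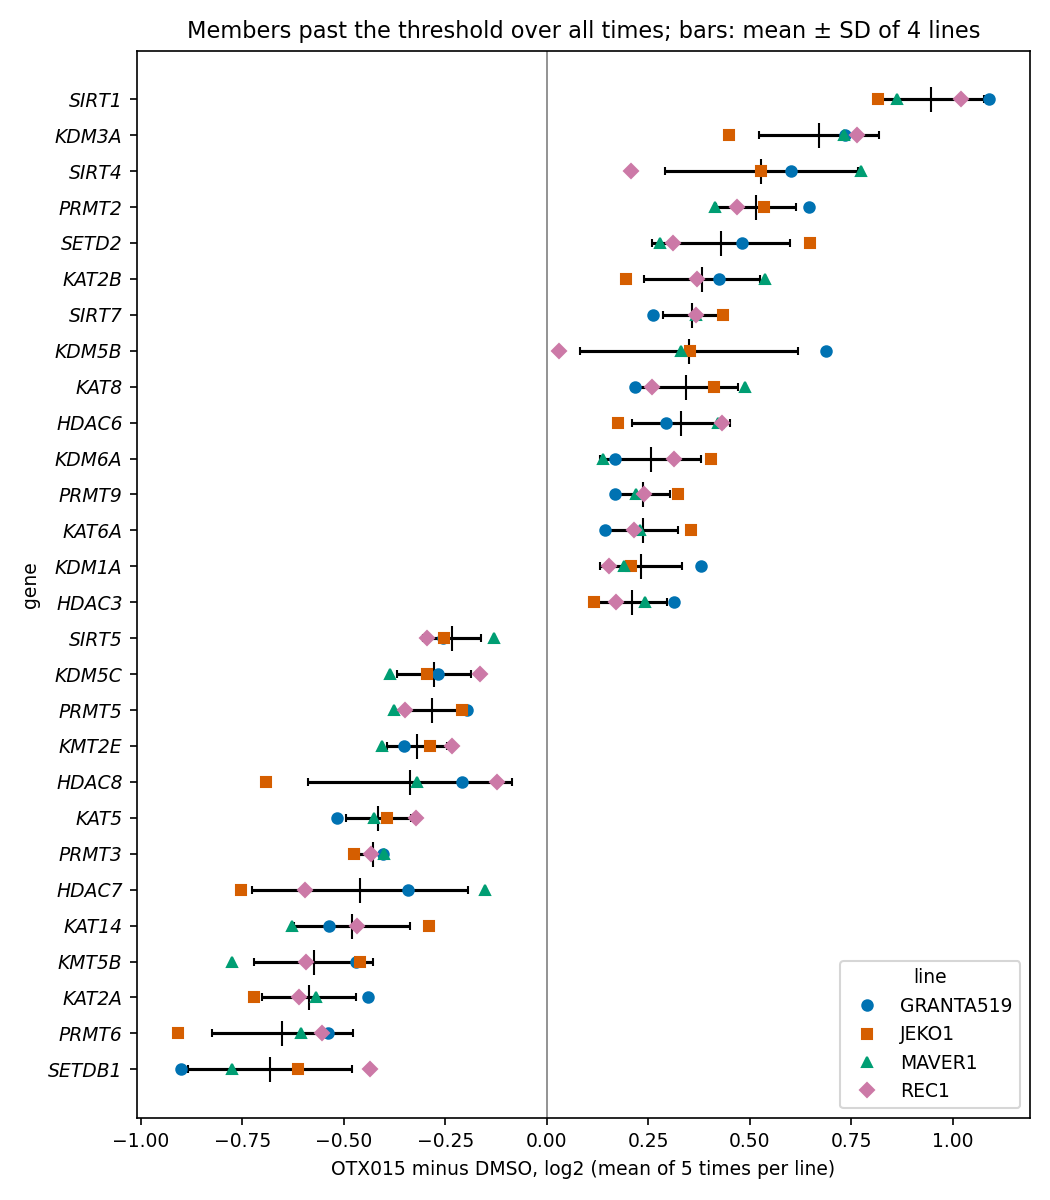
Differences of the 28 genes that changed over all times, OTX015 minus DMSO in log2 units on the horizontal axis, 1 symbol per line (mean of 5 times) with black bars for mean ± SD of the 4 lines. SIRT1 stands highest at 0.95, SETDB1 lowest at -0.68, and REC1 stands close to 0 for KDM5B.

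The promoters of 4 genes are shown because their genes had the largest rise (SIRT1), the largest fall (SETDB1) and opposite changes in a pair of paralogues (KAT2A and KAT2B). The sequences are from RefSeq, build GRCh38.p14, and cover the 250 bases before each start site on the strand of the gene, at chr10:67884406-67884655 (plus strand) for SIRT1, chr1:150926013-150926262 (plus) for SETDB1, chr3:20040196-20040445 (plus) for KAT2B and chr17:42121368-42121617 (minus) for KAT2A. Capitals mark the E-box CACGTG, the sequence bound by MYC and its partner MAX, which reads the same on both strands. It occurs 2 times before SIRT1, 1 time before SETDB1 and 0 times before KAT2B and KAT2A.
SIRT1: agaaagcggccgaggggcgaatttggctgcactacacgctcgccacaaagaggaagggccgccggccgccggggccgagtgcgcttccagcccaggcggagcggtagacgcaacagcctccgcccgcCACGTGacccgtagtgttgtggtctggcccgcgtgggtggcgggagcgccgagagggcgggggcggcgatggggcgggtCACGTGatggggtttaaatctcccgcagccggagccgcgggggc
SETDB1: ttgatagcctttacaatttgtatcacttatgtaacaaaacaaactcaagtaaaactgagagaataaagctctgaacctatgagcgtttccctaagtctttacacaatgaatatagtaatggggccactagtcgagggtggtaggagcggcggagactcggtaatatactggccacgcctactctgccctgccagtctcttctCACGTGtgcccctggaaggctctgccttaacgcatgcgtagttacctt
KAT2B: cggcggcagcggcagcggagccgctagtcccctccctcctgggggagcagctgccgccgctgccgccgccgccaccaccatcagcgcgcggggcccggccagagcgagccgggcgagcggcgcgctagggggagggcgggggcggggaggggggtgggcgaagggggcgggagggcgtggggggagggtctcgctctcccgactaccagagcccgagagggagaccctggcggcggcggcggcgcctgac
KAT2A: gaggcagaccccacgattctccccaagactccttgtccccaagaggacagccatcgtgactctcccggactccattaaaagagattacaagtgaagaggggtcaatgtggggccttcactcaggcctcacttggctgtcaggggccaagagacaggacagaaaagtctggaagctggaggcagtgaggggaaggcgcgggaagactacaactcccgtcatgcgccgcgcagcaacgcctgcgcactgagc
Of 66 of the 73 genes with a promoter in the table, 9 (13.6%) held the E-box, against 6.49% of 27305 promoters. It was present for 2 of 12 genes that rose and 3 of 13 that fell. The CCAAT box (CCAAT on either strand, whose matches cannot overlap those of the E-box) stood in 34.8% of the 66 promoters and 33% of all. It was present for 3 of 12 genes that rose and 2 of 13 that fell. A match of letters is not evidence of binding. The E-box itself holds a CpG, a C followed by a G. All promoters had a median of 11 CpGs, against 32 for SIRT1, 33 for KAT2B, 11 for KAT2A and 9 for SETDB1. The shares of promoters with an E-box were not compared at equal CpG content.

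Among the sirtuins, the NAD-dependent deacylases, 3 of 7 rose and 1 fell, and their median difference of 0.36 was the highest of any role group with over 1 gene. SIRT1, which deacetylates histones, p53 and other nuclear proteins, was raised in every pair of arrays. In GRANTA519 its level at 2, 4, 8, 12 and 24 h was 8.15, 8.26, 8.10, 7.85 and 7.68 with OTX015, against 6.69, 7.12, 7.01, 6.91 and 6.87 with DMSO. In JEKO1 it was 8.59, 8.19, 8.46, 8.21 and 8.12 with OTX015, against 7.72, 7.89, 7.38, 7.49 and 7.01 with DMSO. Within each of these lines all OTX015 arrays lay above all DMSO arrays. In MAVER1 the level was 8.12, 7.85, 7.62, 7.64 and 7.48 with OTX015, against 6.44, 7.02, 6.96, 7.10 and 6.87 with DMSO. In REC1 it was 7.95, 8.27, 7.96, 7.67 and 7.63 with OTX015, against 6.71, 7.13, 7.01, 6.86 and 6.68 with DMSO. The arms thus did not overlap in any line, which held for 1.67% of all genes. The rise was 1.93-fold (0.95 ± 0.13, limma adjusted p = 0.000679) and kept its direction and call in all 18 alternatives tried, with values between 0.61 and 0.995.

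SIRT4, a mitochondrial sirtuin, rose by 0.53 ± 0.24 (limma adjusted p = 0.00871), close to the background of the array. It was detected on 14 OTX015 arrays and 6 DMSO arrays. In GRANTA519 it was detected on 3 OTX015 arrays and 0 DMSO arrays, so the rise there is given as at least 1.10-fold, the bound being the mean of the OTX015 arrays over the lowest detectable signal. SIRT7, a nucleolar deacetylase of H3K18, had levels of 5.88, 6.90 and 7.21 (lowest, median and highest of 20 OTX015 arrays), against 5.89, 6.31 and 7.01 on the DMSO arrays. Its arms overlapped, and it rose by 0.36 ± 0.07 (limma adjusted p = 0.0067). SIRT5, a mitochondrial desuccinylase, fell by 0.23 ± 0.07 (limma adjusted p = 0.0305) on 1 of its 4 probes, while the others lay between -0.05 and -0.02. SIRT2, a mainly cytoplasmic deacetylase, differed by 0.36 ± 0.31 and did not pass (limma adjusted p = 0.0591). It had 0.55 in GRANTA519 and 0.68 in MAVER1, against 0.00 in JEKO1 and 0.22 in REC1. SIRT3 (0.10 ± 0.20) and SIRT6 (-0.13 ± 0.21) did not pass either.

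Of the classical deacetylases, 2 of 10 rose and 2 fell. HDAC3, the catalytic subunit of the NCOR complexes, rose by 0.21 ± 0.09 (limma adjusted p = 0.0478) and HDAC6, the cytoplasmic tubulin deacetylase, by 0.33 ± 0.12 (limma adjusted p = 0.0137). HDAC6 was higher in 20 of 20 pairs, though by as little as 0.01. HDAC7, a class IIa enzyme active in lymphocytes, had levels of 4.40, 4.97 and 6.28 (lowest, median and highest) on OTX015 arrays, against 4.53, 5.46 and 6.76 on DMSO arrays, and was detected on 10 OTX015 and 16 DMSO arrays. It fell by 0.46 ± 0.27 (limma adjusted p = 0.0185) on the probe with the highest signal, while its other probes differed by 0.00 ± 0.49 and 0.10 ± 0.26. The call of HDAC7 was also lost without GRANTA519, without JEKO1 and without REC1. HDAC8, a class I enzyme outside the large complexes, fell by 0.34 ± 0.25 (limma adjusted p = 0.0469), mostly in JEKO1 (-0.69 ± 0.28 over its 5 times). HDAC1 (-0.11 ± 0.11) and HDAC2 (0.05 ± 0.09), the paired catalytic subunits of the SIN3, NuRD and CoREST complexes, did not pass. HDAC9, a further class IIa enzyme, did not pass on its brightest probe (-0.06 ± 0.17), whereas its dimmer probes, chosen here after their values were seen, gave -0.52 ± 0.40 and -0.77 ± 0.52.

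Of the 10 acetyltransferases, 3 rose and 3 fell. CREBBP and EP300, the paired coactivators of enhancers, did not pass, at -0.21 ± 0.14 and 0.07 ± 0.17. The H4K16 acetyltransferase KAT8 rose by 0.34 ± 0.13 (limma adjusted p = 0.0128) and KAT6A, the MOZ protein, by 0.24 ± 0.09 (limma adjusted p = 0.0331). KAT5, the TIP60 enzyme of the NuA4 complex, had levels of 4.70, 5.28 and 5.71 (lowest, median and highest) on OTX015 arrays, against 5.32, 5.74 and 6.35 on DMSO arrays. It was lower in 19 of 20 pairs and fell by 0.41 ± 0.08 (limma adjusted p = 0.00439), with its 2 further probes at -0.13 and -0.31. KAT14, a subunit of the ATAC complex, stood at 6.30, 8.08 and 8.99 on OTX015 arrays, against 6.94, 8.66 and 9.40 on DMSO arrays. The arms overlapped across lines, and within GRANTA519, MAVER1 and REC1 they did not. It fell by 0.48 ± 0.14 (limma adjusted p = 0.00468).

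The paralogues KAT2A (GCN5) and KAT2B (PCAF), which acetylate H3K9 and take each other's place as the catalytic subunit of the SAGA and ATAC complexes, moved in opposite directions, and both did so with time. Over all times KAT2A fell by 0.59 ± 0.12 (limma adjusted p = 0.00199) and KAT2B rose by 0.38 ± 0.14 (limma adjusted p = 0.0104). In GRANTA519 the level of KAT2A at 2, 4, 8, 12 and 24 h was 8.22, 7.92, 7.64, 7.42 and 7.37 with OTX015, against 8.18, 7.83, 8.26, 8.14 and 8.36 with DMSO. That of KAT2B was 7.42, 7.96, 8.31, 8.30 and 8.78 with OTX015, against 7.68, 7.69, 7.92, 7.70 and 7.65 with DMSO. The DMSO levels stayed between 7.83 and 8.36 for KAT2A and between 7.65 and 7.92 for KAT2B, and the OTX015 levels moved below and above these bands. In REC1 KAT2A was 9.03, 8.56, 8.44, 8.23 and 8.32 with OTX015, against 8.89, 8.97, 9.33, 9.11 and 9.33 with DMSO. KAT2B in REC1 was 7.07, 7.47, 7.78, 8.19 and 8.40 with OTX015, against 7.0, 7.51, 7.65, 7.47 and 7.42 with DMSO. In both lines the OTX015 and DMSO levels lay close together at 2 h and furthest apart at 24 h.

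In MAVER1 KAT2A was 8.90, 8.18, 7.79, 8.20 and 8.01 with OTX015, against 8.57, 8.87, 8.99, 8.87 and 8.63 with DMSO. KAT2B in MAVER1 was 6.20, 6.47, 6.86, 7.02 and 7.24 with OTX015, against 6.71, 5.86, 6.24, 6.20 and 6.11 with DMSO. Here the effect on KAT2B passed from below to above 0 after 2 h. In JEKO1 KAT2A was 8.35, 8.26, 7.75, 8.06 and 8.04 with OTX015, against 8.58, 8.92, 9.01, 8.78 and 8.78 with DMSO. KAT2B in JEKO1 was 7.91, 8.19, 7.67, 7.66 and 7.91 with OTX015, against 7.87, 7.68, 7.65, 7.47 and 7.69 with DMSO. JEKO1 had the smallest effect on KAT2B, 0.22 at 24 h against at least 0.98 in each of the other lines. The mean difference of KAT2A was 0.07 ± 0.24 at 2 h and -0.84 ± 0.19 at 24 h, a change of -0.91 (limma adjusted p = 0.0031). That of KAT2B was -0.16 ± 0.27 at 2 h and 0.87 ± 0.43 at 24 h, a change of 1.03 (limma adjusted p = 0.00413). KAT2A kept this call in 14 of 14 alternatives, and KAT2B in 12, with adjusted p-values between 0.000877 and 0.0756, the exceptions being without GRANTA519 and without MAVER1.

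**Figure D2:**
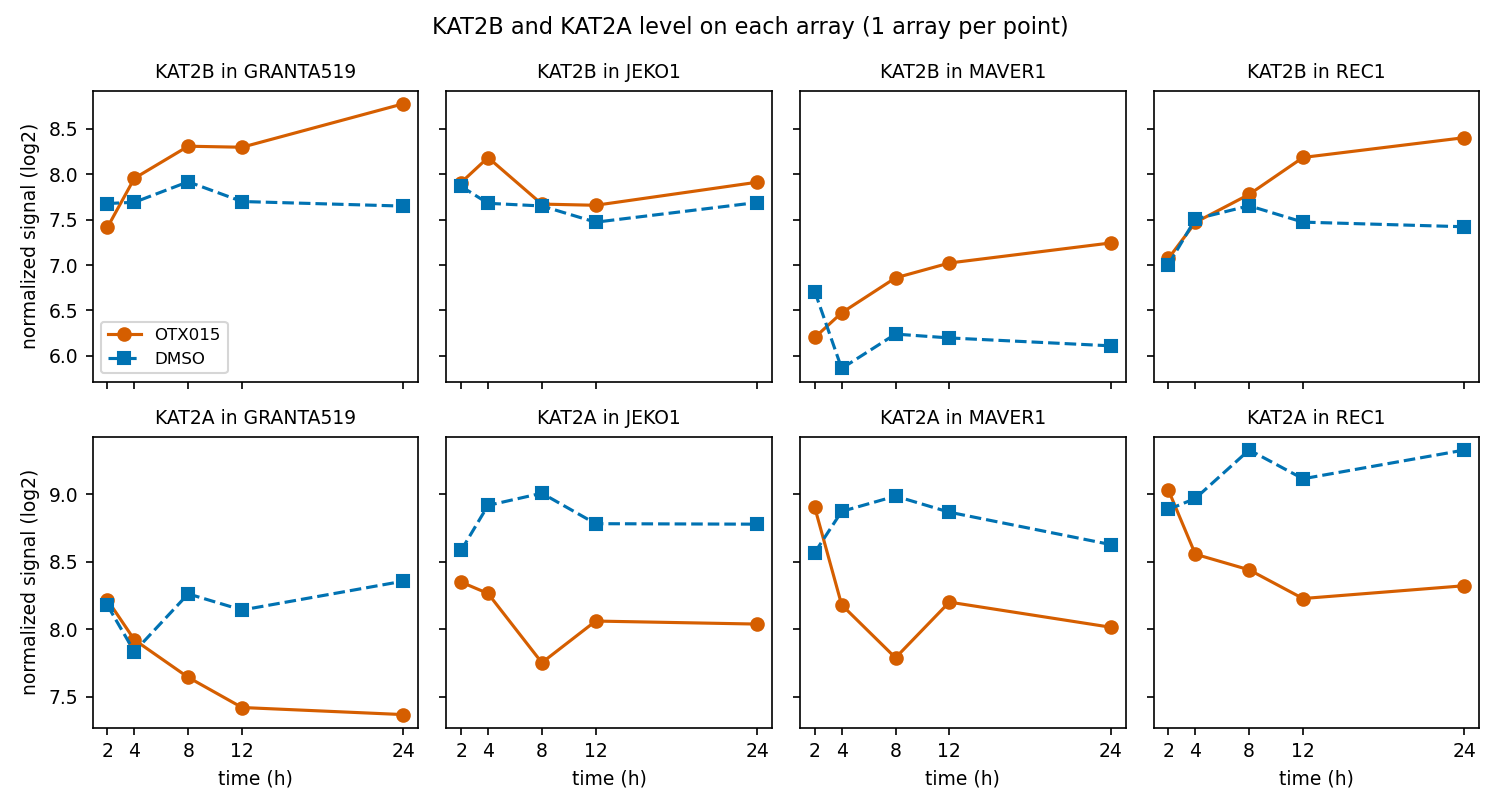
Level of KAT2B (top) and KAT2A (bottom) on each array against time in hours, 1 panel per line, with normalised signal on the log2 scale on the vertical axis, OTX015 as filled circles and DMSO as squares. In GRANTA519, MAVER1 and REC1 the OTX015 line of KAT2B climbs above the DMSO line by 24 h, and that of KAT2A lies below its DMSO line from 8 h on in all 4 lines.

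Among the lysine methyltransferases of silent chromatin, 2 of 5 genes acting on H3K9 and H4K20 fell and 0 rose, and neither H3K27 enzyme passed. SETDB1, which trimethylates H3K9 at silenced retroelements, was lower with OTX015 in 20 of 20 pairs. In GRANTA519 its level at 2, 4, 8, 12 and 24 h was 6.58, 6.24, 6.89, 7.22 and 7.54 with OTX015, against 7.77, 7.70, 7.68, 8.15 and 7.68 with DMSO. In JEKO1 it was 7.16, 7.22, 7.45, 7.54 and 7.62 with OTX015, against 7.70, 8.24, 7.96, 8.24 and 7.92 with DMSO. The OTX015 levels in both lines were lowest at 2 or 4 h and approached the DMSO levels by 24 h. In MAVER1 the level was 6.64, 6.36, 6.76, 6.91 and 7.22 with OTX015, against 7.27, 7.75, 7.59, 7.62 and 7.54 with DMSO. In REC1 it was 6.69, 6.86, 6.73, 7.12 and 7.19 with OTX015, against 6.97, 7.55, 7.39, 7.60 and 7.26 with DMSO. The arms did not overlap in GRANTA519, JEKO1 and MAVER1 and overlapped in REC1. SETDB1 fell by 0.68 ± 0.20, or 1.60-fold (limma adjusted p = 0.00251).

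KMT5B, which dimethylates H4K20, had levels of 6.24, 7.37 and 8.67 (lowest, median and highest) on OTX015 arrays, against 7.09, 7.93 and 8.96 on DMSO arrays, and was lower in 20 of 20 pairs. It fell by 0.57 ± 0.15 (limma adjusted p = 0.0026), and its further probe gave -0.64 ± 0.14. Its paralogue KMT5C differed between lines, as described below, and KMT5A, which places the first methyl group on H4K20, had 0.00 ± 0.07. EZH2, the catalytic subunit of PRC2, had levels of 8.34, 9.03 and 9.72 on OTX015 arrays, against 8.35, 8.92 and 9.26 on DMSO arrays. Its difference was 0.17 ± 0.20 (limma adjusted p = 0.206), with 0.46 ± 0.32 in JEKO1 over its 5 times, where it passed (limma adjusted p = 0.00574). The largest EZH2 difference in JEKO1, 0.93 at 4 h, coincided with the lowest DMSO level of EZH2 in that line, 8.70. EZH1, its paralogue in resting cells, had 0.03 ± 0.34.

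In the groups of methyltransferases of active chromatin, 1 of 4 H3K36 genes rose, and 1 of 6 genes grouped with H3K4, KMT2E, fell. DOT1L, the H3K79 methyltransferase, had -0.28 ± 0.21 over all times and did not pass (limma adjusted p = 0.0607). SETD2, which trimethylates H3K36 in transcribed genes, had levels of 7.98, 9.18 and 9.62 (lowest, median and highest) on OTX015 arrays, against 7.77, 8.73 and 9.17 on DMSO arrays. The arms overlapped, 18 of 20 pairs were higher, and the rise was 0.43 ± 0.17 (limma adjusted p = 0.0091). NSD2 (-0.22 ± 0.23) and NSD3 (-0.09 ± 0.17), which dimethylate H3K36, did not pass. NSD1, a further H3K36 dimethylase, had 0.00 ± 0.69 on its brightest probe, whose single differences ran up to 2.32 in JEKO1 at 2 h and down to -2.29 in REC1 at 4 h, and -0.38 ± 0.19 on its other probe. KMT2E, a SET domain protein of the MLL family that binds methylated H3K4, fell by 0.32 ± 0.07 (limma adjusted p = 0.0105), with its further probes at -0.31 ± 0.16 and -0.09 ± 0.30, the last of which had 0.28 in JEKO1. SETD1A (-0.25 ± 0.19), KMT2B (-0.18 ± 0.09), KMT2A (0.15 ± 0.08), KMT2C (0.22 ± 0.23) and SETD1B (-0.04 ± 0.12), the catalytic subunits of COMPASS-like complexes, did not pass over all times. SETD3, SETD4, SETD6 and SETD9 lay between -0.01 and 0.13 and did not pass, nor did the non-coding KDM7A-DT (0.07 ± 0.14).

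Of the 7 arginine methyltransferases, 2 rose and 3 fell. PRMT6, which dimethylates H3R2 asymmetrically, was lower in 20 of 20 pairs. In GRANTA519 its level at 2, 4, 8, 12 and 24 h was 6.57, 6.29, 7.37, 7.34 and 7.37 with OTX015, against 7.07, 7.51, 7.70, 7.72 and 7.63 with DMSO. In JEKO1 it was 7.94, 7.78, 8.55, 8.46 and 8.28 with OTX015, against 8.92, 9.40, 9.12, 9.27 and 8.83 with DMSO. The arms overlapped in GRANTA519 and did not overlap in JEKO1. In MAVER1 the level was 7.50, 7.79, 8.06, 8.24 and 8.04 with OTX015, against 8.45, 8.36, 8.43, 8.74 and 8.67 with DMSO. In REC1 it was 7.67, 7.36, 8.25, 8.12 and 8.28 with OTX015, against 8.32, 8.60, 8.70, 8.43 and 8.40 with DMSO. The arms of MAVER1 and of REC1 did not overlap. PRMT6 fell by 0.65 ± 0.17 (limma adjusted p = 0.00235), and its further probe gave -0.77 ± 0.11.

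PRMT2, a coactivator with weak arginine methyltransferase activity, had levels of 5.55, 7.35 and 7.87 (lowest, median and highest) on OTX015 arrays, against 5.62, 6.88 and 7.31 on DMSO arrays. It was higher in 19 of 20 pairs and rose by 0.52 ± 0.10 (limma adjusted p = 0.00247), with its further probes at 0.42 ± 0.06 and, detected on 20 arrays, 0.11 ± 0.14. PRMT3, which methylates a ribosomal protein, stood at 7.90, 8.95 and 9.53 on OTX015 arrays, against 8.50, 9.42 and 9.97 on DMSO arrays. It fell by 0.43 ± 0.03 (limma adjusted p = 0.00294), with line means between -0.48 and -0.40. PRMT5, the main symmetric dimethylase, fell by 0.28 ± 0.09 (limma adjusted p = 0.0186), and its further probe gave -0.52 ± 0.16. That call was lost without MAVER1 and without REC1. PRMT9, a methyltransferase of splicing factor SF3B2, rose by 0.24 ± 0.06 (limma adjusted p = 0.0274). PRMT1, the main asymmetric dimethylase (-0.13 ± 0.11), and PRMT7, which monomethylates arginine (0.10 ± 0.21), did not pass.

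Of the 16 demethylases, 4 rose and 1 fell. KDM3A, which removes methyl groups from H3K9 and is induced by hypoxia in many cell types, had levels of 5.85, 6.50 and 7.08 (lowest, median and highest) on OTX015 arrays, against 5.19, 5.68 and 6.52 on DMSO arrays. The arms did not overlap in GRANTA519, MAVER1 and REC1 and overlapped in JEKO1. KDM3A was higher in 19 of 20 pairs and rose by 0.67 ± 0.15, or 1.59-fold (limma adjusted p = 0.00173), against 0.31 without background correction and 0.31 with the series matrix. The other 9 tested demethylases of H3K9 and H3K36 lay between -0.14 (KDM4D) and 0.22 (KDM7A) and did not pass. KDM5B, which demethylates H3K4, rose by 0.35 ± 0.27 (limma adjusted p = 0.0478), with 0.69 in GRANTA519, 0.35 in JEKO1, 0.33 in MAVER1 and 0.03 in REC1. Its call was lost in 11 of 18 alternatives, with adjusted p-values between 0.00497 and 0.144. KDM6A, an H3K27 demethylase of the KMT2C and KMT2D complexes, rose by 0.26 ± 0.12 (limma adjusted p = 0.035), and KDM1A, the LSD1 enzyme of the CoREST complex, by 0.23 ± 0.10 (limma adjusted p = 0.0385). Both calls were lost when any 1 line was left out. KDM5C, a paralogue of KDM5B, fell by 0.28 ± 0.09 (limma adjusted p = 0.0192) and was detected on 11 OTX015 and 17 DMSO arrays. KDM6B, a further H3K27 demethylase, had -0.08 ± 0.06 and was detected on 2 OTX015 and 2 DMSO arrays.

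The comparison at each time asks when the genes moved. At 2 h 3 genes rose and 8 fell, against 4.96% and 4.84% of all genes, and the 8 make up 11% of the 73. The 3 that rose remove marks, namely SIRT1 (1.31 ± 0.35, limma adjusted p = 7.12e-06), KDM3A (1.09 ± 0.55, limma adjusted p = 0.000769) and HDAC2 (0.34 ± 0.11, limma adjusted p = 0.0271). The 8 that fell belong to families that place marks. They were PRMT6 (-0.77 ± 0.24), KAT14 (-0.67 ± 0.20), SETDB1 (-0.66 ± 0.38), DOT1L (-0.58 ± 0.41), KMT2B (-0.53 ± 0.35), KMT5B (-0.52 ± 0.19), KMT2E (-0.50 ± 0.05) and SETD1A (-0.43 ± 0.27). This grouping was seen in the calls and was not tested. It was not complete at 4 h, where PRMT2, KAT8, SETD2 and EZH2 rose beside SIRT1, KDM3A and HDAC6. HDAC7 was among the 10 genes that fell at 4 h. At 4 h 7 rose and 10 fell, against 9.92% and 10.1% of all genes. PRMT6 (-1.16 ± 0.44, limma adjusted p = 7.25e-06) and SETDB1 (-1.14 ± 0.36, limma adjusted p = 6.84e-06) had their lowest values there, EZH2 rose (0.49 ± 0.33), and PRMT3 (-0.67 ± 0.18) and KAT5 (-0.80 ± 0.39) passed for the first time. For EZH2 the differences at 4 h were 0.55 in GRANTA519, 0.93 in JEKO1, 0.18 in MAVER1 and 0.30 in REC1. In JEKO1 its DMSO level was 8.70 at 4 h, against 9.05 to 9.25 at the other times.

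At 8 h 10 rose and 10 fell, against 11% and 10.7% of all genes, with KAT2A lowest (-0.99 ± 0.30, limma adjusted p = 1.8e-05) and SIRT1 highest (0.95 ± 0.20). HDAC8 passed at 8 h alone (-0.72 ± 0.31, limma adjusted p = 0.00605). At 12 h 10 rose and 11 fell, against 10.6% and 11.9%, among them SIRT2 (0.58 ± 0.39), KAT6A (0.47 ± 0.16) and NSD2 (-0.43 ± 0.11). At 24 h 18 rose and 6 fell, against 13.2% and 11.4%, and the 18 make up 24.7% of the 73. The median difference at 24 h was 0.10 over the 73 genes and 0.0070 over all genes. The 18 were led by SIRT1 (0.87 ± 0.21), KAT2B (0.87 ± 0.43), SIRT4 (0.75 ± 0.40) and KDM5B (0.65 ± 0.53), and also held the H3K9 and H3K36 demethylase KDM4A (0.62 ± 0.49), KDM6A (0.60 ± 0.21), the H3K4 methyltransferase KMT2A (0.49 ± 0.13) and the class IV deacetylase HDAC11 (0.48 ± 0.32). HDAC11 was detected on 3 OTX015 arrays and 0 DMSO arrays at 24 h and was at least 1.15-fold higher. The 6 that fell were KAT2A (-0.84 ± 0.19), KAT14 (-0.63 ± 0.21), PRMT5 (-0.42 ± 0.12), SIRT5 (-0.41 ± 0.39), PRMT6 (-0.39 ± 0.24) and PRMT3 (-0.37 ± 0.10).

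In all, 41 genes passed at 1 time or more (56.2%, against 43.2% of all genes), and 0 passed in opposite directions at different times, against 0.582% of all. SIRT1, PRMT6 and KAT14 passed at both 2 h and 24 h, each in the same direction. SIRT1 and PRMT6 passed at all 5 times. The effect at 24 h exceeded that at 2 h in 4 genes and was below it in 2, against 5.79% and 5.67% of all genes. The 4 were KAT2B, SETD1B (0.69, limma adjusted p = 0.0467), KDM6A (0.56, limma adjusted p = 0.0206) and KMT2B (0.52, limma adjusted p = 0.0381), and the 2 were KAT2A and PRMT5 (-0.41, limma adjusted p = 0.0471). SETD1B stood at -0.37 ± 0.23 at 2 h and 0.32 ± 0.13 at 24 h, neither of which passed, and KMT2B at -0.53 ± 0.35 at 2 h and -0.01 ± 0.12 at 24 h. Without GRANTA519 the calls numbered 6 at 2 h, in place of 11, and 13 at 12 h, in place of 21. Without MAVER1 they numbered 13 at 8 h, in place of 20, and 10 at 12 h, and without REC1 7 at 2 h, 13 at 8 h and 10 at 12 h. The count of 6 was 2 without GRANTA519, without MAVER1 or without REC1, and 3 without 8 h.

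**Figure D3:**
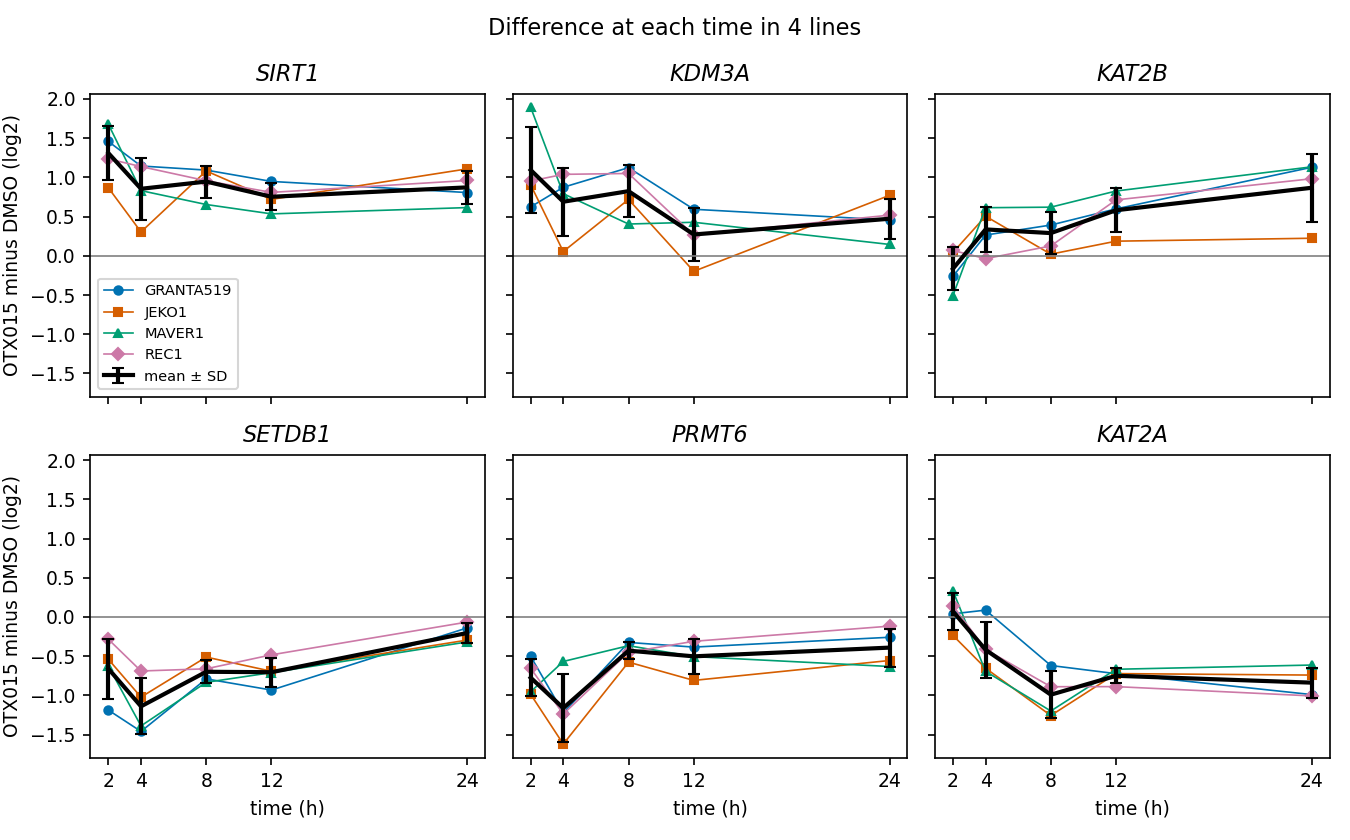
Differences of 6 genes, OTX015 minus DMSO in log2 units, at 2, 4, 8, 12 and 24 h, with 1 coloured line per cell line and the mean ± SD of the 4 lines in black. SIRT1 and KDM3A stand highest at 2 h, SETDB1 and PRMT6 lowest at 4 h, and KAT2B and KAT2A move apart with time.

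Within single lines the 5 times stand in for replicates, and the spread is shared over the 4 lines. These p-values thus measure the spread between times pooled over the lines, not the SD of the named line alone. In GRANTA519 10 genes rose and 8 fell, against 11.9% and 12.4% of all genes. In JEKO1 11 rose and 9 fell, against 10.7% and 13.5%. In MAVER1 11 rose and 10 fell, against 11.2% and 10.7%, and in REC1 4 rose and 9 fell, against 7.82% and 7.63%. Genes that passed in all 4 lines numbered 5 (6.85%, against 6.54% of all genes that passed in 1 direction in all 4), namely SIRT1 and PRMT2, which rose, and PRMT6, PRMT3 and KMT5B, which fell. Of SIRT1 the effect was 1.09 ± 0.24 in GRANTA519, 0.82 ± 0.33 in JEKO1, 0.86 ± 0.47 in MAVER1 and 1.02 ± 0.17 in REC1 (SD over 5 times). All OTX015 arrays lay apart from all DMSO arrays of the line in 7 genes in GRANTA519, 7 in JEKO1, 13 in MAVER1 and 12 in REC1, against 12.9%, 9.26%, 11.4% and 9.03% of all genes.

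With all 5 times, the genes that passed in a line numbered 18 in GRANTA519, 20 in JEKO1, 21 in MAVER1 and 13 in REC1. Leaving out 1 time moved these counts of genes that passed. Without 12 h they were 11 in GRANTA519, 13 in JEKO1, 12 in MAVER1 and 4 in REC1, and without 8 h 11, 15, 13 and 5 in the same order of lines. Without 4 h JEKO1 had 13 and REC1 6, and without 24 h MAVER1 had 13.

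Between lines the effect of OTX015 differed in 2 of the 73 genes (2.74%), against 9.71% of all genes. KMT5C, which trimethylates H4K20, had differences of -0.93, -0.48, -0.07, -0.26 and -0.12 in JEKO1 at 2, 4, 8, 12 and 24 h. It stood at 0.83, -0.35, 0.61, 0.58 and 0.43 in GRANTA519, at 0.82, 0.19, 0.44, 0.57 and 0.29 in MAVER1 and at 0.26, 0.32, 0.78, 0.87 and -0.22 in REC1. JEKO1 was below 0 at every time, and the line means were -0.37 in JEKO1, 0.42 in GRANTA519, 0.46 in MAVER1 and 0.40 in REC1 (limma F test, adjusted p = 0.0302). KMT5C lay close to the background of the array. It was detected on 2 DMSO arrays of GRANTA519, 3 of MAVER1 and 5 each of JEKO1 and REC1. With OTX015 it was detected on 3 arrays of JEKO1 and on 5 of each other line. Without background correction its difference between lines did not pass (limma F test, adjusted p = 0.0523). KDM4B, a demethylase of H3K9, stood at 0.10, -0.60, -0.66, -0.75 and -0.66 in REC1 at the same times. Its line means were -0.51 in REC1, 0.20 in GRANTA519, 0.10 in JEKO1 and 0.30 in MAVER1 (limma F test, adjusted p = 0.0418). REC1 lay between -0.75 and -0.60 from 4 h on, and the lowest value in the other lines was -0.20. The count of 2 was 0 without JEKO1, without MAVER1, without 8 h or without 12 h, 1 without REC1, without 4 h or without 24 h, and 6 without 2 h. With 1 time left out, the adjusted p-value ran between 0.0336 and 0.172 for KMT5C and between 0.00268 and 0.214 for KDM4B. With 1 line left out other than the one that stood apart, it ran between 0.0397 and 0.0635 for KMT5C and between 0.056 and 0.0823 for KDM4B. SIRT4, SIRT2 and PRMT7 had the next smallest p-values in this test and did not pass (limma F test, adjusted p = 0.0571, 0.0594 and 0.066).

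**Figure D4:**
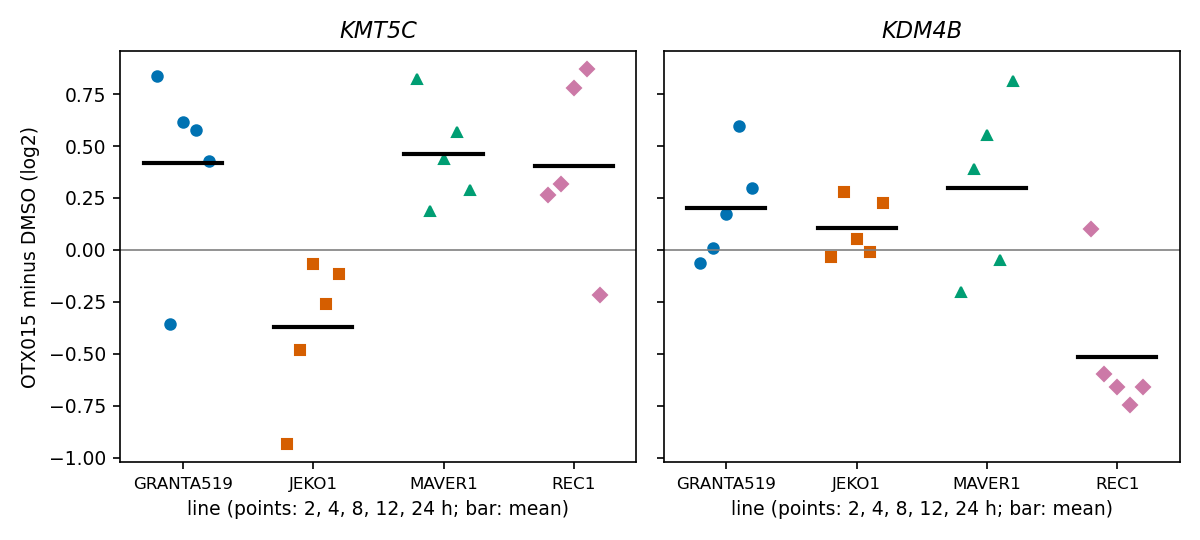
Differences of KMT5C (left) and KDM4B (right), OTX015 minus DMSO in log2 units, with 1 point for each time in each line and a bar at the mean of the 5 times. All 5 points of KMT5C lie below 0 in JEKO1, and 4 of 5 points of KDM4B lie between -0.75 and -0.60 in REC1.

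Without OTX015 most of these genes differed between the lines. On the 20 DMSO arrays 59 of the 73 genes (80.8%) differed between lines, against 73.4% of all genes (limma F test, with times in the place of replicates). SETDB2, a relative of SETDB1, had mean levels of 8.38 ± 0.19 in GRANTA519, 9.48 ± 0.25 in JEKO1, 8.28 ± 0.23 in MAVER1 and 7.31 ± 0.22 in REC1 (SD over 5 times), a range of 4.51-fold. GRANTA519 and MAVER1 overlapped in it, with JEKO1 above and REC1 below them. KAT14 had 7.05 ± 0.07 in GRANTA519, 8.74 ± 0.13 in JEKO1, 8.41 ± 0.27 in MAVER1 and 9.19 ± 0.13 in REC1. KDM1A had 7.74 ± 0.22 in GRANTA519, 9.50 ± 0.17 in JEKO1, 9.56 ± 0.10 in MAVER1 and 9.05 ± 0.07 in REC1. For both, GRANTA519 lay below the other lines by more than the spread, and the arrays of JEKO1 and MAVER1 overlapped. HDAC7 had 4.95 ± 0.30 in GRANTA519, 5.93 ± 0.31 in JEKO1, 4.91 ± 0.23 in MAVER1 and 6.60 ± 0.13 in REC1. In GRANTA519 and in MAVER1 it was detected on 3 DMSO arrays each, where the background limits its range. PRMT6 had 7.53 ± 0.27 in GRANTA519, 9.11 ± 0.24 in JEKO1, 8.53 ± 0.17 in MAVER1 and 8.49 ± 0.16 in REC1, so that GRANTA519 was lowest and MAVER1 and REC1 did not differ beyond their spread. SIRT4 passed detection on 0 DMSO arrays in GRANTA519 and on 4 in JEKO1, and was at least 2.04-fold lower in GRANTA519.

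**Figure D5:**
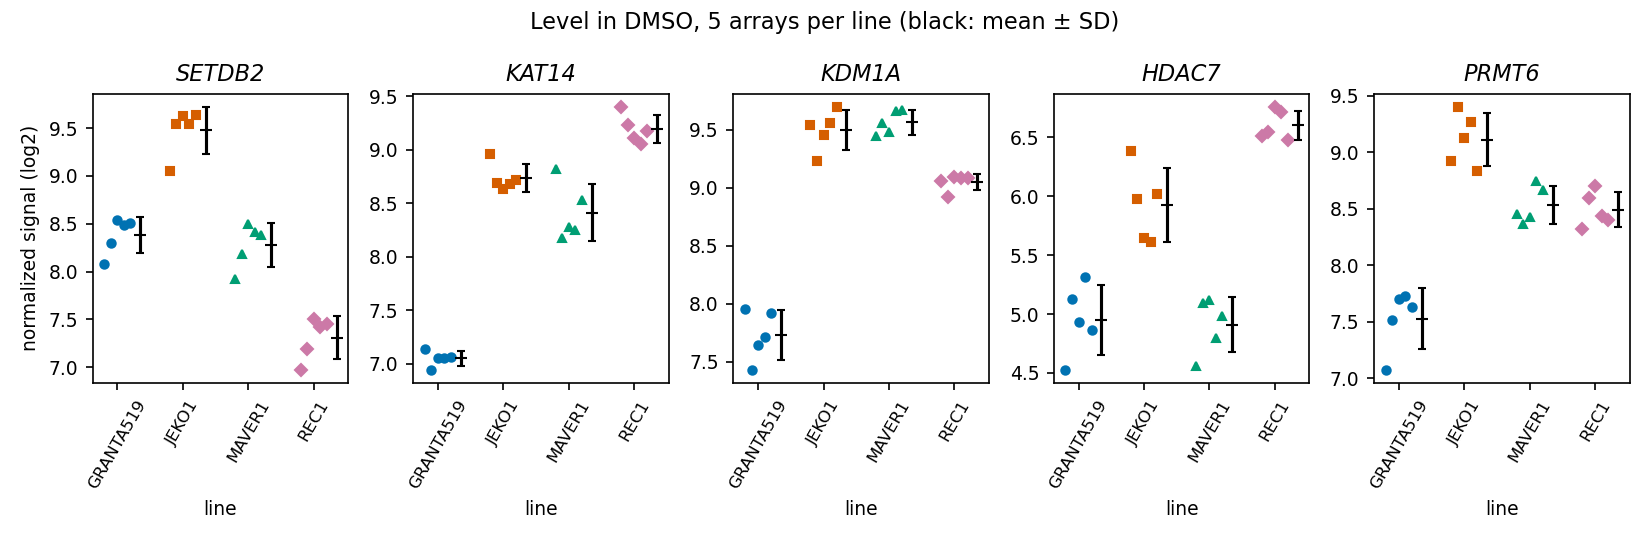
Level of 5 genes on the DMSO arrays, normalised signal on the log2 scale, with 1 point per array (5 times) and black bars for mean ± SD in each line. GRANTA519 stands lowest for KAT14, KDM1A and PRMT6, and REC1 lowest for SETDB2.

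Partners of these enzymes were listed by complex. Of 101 tested, 16 rose (15.8%) and 18 fell (17.8%) over all times, against 14.5% and 14.4% of all genes, with a median of -0.04, against 0.0058 over all genes. Among 15 partners in PRC2 and PRC1, 1 rose and 4 fell, led by PHF19, which brings PRC2 to chromatin (-0.98 ± 0.13), and PCGF1, a subunit of a variant PRC1 (-0.96 ± 0.17). Among 12 COMPASS partners 3 rose and 1 fell, led by PSIP1, which tethers the MLL complex to H3K36 methylation (0.60 ± 0.05), and HCFC1, a scaffold subunit (-0.38 ± 0.15). Of 24 HDAC corepressor partners 6 rose and 3 fell, led by the NCOR subunit TBL1XR1 (-0.74 ± 0.30) and the NuRD subunit MTA3 (-0.69 ± 0.22). Of 28 genes listed as acetyltransferase partners 4 rose and 5 fell. They were led by JADE2, a scaffold of the KAT7 complex (-1.59 ± 0.27), and ING1, a reader of H3K4 methylation (0.85 ± 0.02). That list took in the whole ING family, of which ING1 and ING2, both among the 4 rises, are subunits of the SIN3 deacetylase complex. Of 22 further enzymes 2 rose and 5 fell, led by the demethylase PHF2 (-1.01 ± 0.14) and the H3K9 methyltransferase SUV39H1 (-0.85 ± 0.19). The limma adjusted p-values of the 10 leading genes, 2 per list, were at most 0.0115.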

How the data were processed

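Per the labels, 40 single-colour Illumina arrays held total RNA of 4 lines, and the replicate of a group is the cell line. The deposited table gives 1 intensity per probe, and the submitters' processing notes name GenomeStudio, with no version. The authors' series matrix gives deposited log2 values with no stated normalization, and served as an alternative. Of 47231 probes, 30113 had 1 symbol, 8 several and 17110 were unnamed here, and 30074 were matched to RefSeq through Entrez ids. Array medians ran between 95.6 and 126 intensity units, and 35.3% to 46.8% of probes were detected. The number of arrays limits the precision.

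Each array's background was the mode of its log2 signal density. The normal-exponential model was applied at that level, an offset of 16 was added, arrays were quantile normalized, which hides a change shared by all transcripts, and log2 was taken (limma 3.58.1, R 4.3.3). A probe was detected above the mode by 2.33 SD, and the brightest kept probe stood for its gene. Levels of different genes are not comparable.

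Effects were tested with limma's lmFit and eBayes, two-sided with Benjamini-Hochberg adjustment, on 20 differences between OTX015 and DMSO arrays of the same line and time: over all times on the 4 line means, at each time and in each line with the spread shared, between lines by an F test with time in the model, and between 24 h and 2 h as a contrast. Same-numbered arrays come from the same line and deviated together (correlation 0.756 to 0.886 over the 20 pairs). The procedures were tested on simulated data. Alternatives changed background, offset, normalization, source table, filter, probe choice, lines, times and pairing. The genes and lists were chosen with earlier results of these data known. Values by array or line were given for the 8 largest rises and 8 largest falls over all times, the 5 smallest p-values between lines, the 3 largest changes each way between 2 h and 24 h, and the 5 widest DMSO ranges. Of each partner list the 2 largest changes are named, and the Y-linked gene among the 73 is given in counts only.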

Additional observations from a re-analysis of the deposited data

Results flagged for a closer look

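KDM3A rose less in JEKO1 (0.45) than in the other lines, which lay between 0.73 and 0.76. KMT5C stood at -0.37 in JEKO1 and between 0.40 and 0.46 in the others. Both gaps exceed Dixon's critical value for 4 values, which chance passes in about 1 of 20 groups. The number of groups screened is not given, so these flags cannot be set against that rate. By the test of the difference between lines, KDM3A did not pass (limma F test, adjusted p = 0.705), while KMT5C did (limma F test, adjusted p = 0.0302), as did KDM4B, which was lower in REC1 (limma F test, adjusted p = 0.0418).

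The effect of OTX015 differed between 24 h and 2 h by 1.03 for KAT2B, 0.69 for SETD1B, 0.56 for KDM6A, 0.52 for KMT2B, -0.41 for PRMT5 and -0.91 for KAT2A (24 h minus 2 h, log2, limma). KAT2A passed in 14 of 14 alternatives, KAT2B in 12 of 14, KDM6A in 11 of 14, KMT2B in 8 of 14, SETD1B in 6 of 13 and PRMT5 in 6 of 14.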

How the results depend on the processing

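Over 25 named genes and 445 alternatives of the effect over all times, direction and call stayed in 394, the call was lost in 38, gained in 8, and the sign turned in 5, all of effects near 0 that had not passed: KDM4B at -0.037, -0.0034, -0.069 and -0.013 (without GRANTA519, JEKO1, MAVER1 and 24 h) and SETD1B at 0.039 (without 2 h). With 1 line or time left out, KDM4B ran up to 0.20 and SETD1B down to -0.13. Lost calls were most frequent for KDM5B (11 of 18), KDM1A (8 of 18), HDAC7 (6 of 17) and KDM6A (6 of 18). The sizes depend on the background: the 28 changes had a median of 66.5% of the size given above without background correction, 62.4% with the series matrix and 82.3% with an offset of 50.

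Without the pairing by line (no replicate block) 8 genes rose over all times, 9 fell, and 2, 3, 2, 0 and 1 passed at 2, 4, 8, 12 and 24 h, because the spread then holds the differences between lines (at 12 h, limma; paired, 21). With line as a random block 18 rose and 18 fell. Leaving out 1 line or time gave 7 to 14 rises and 8 to 14 falls over all times, 6 to 11 calls at 2 h, 12 to 17 at 4 h, 13 to 21 at 8 h, 10 to 21 at 12 h, 16 to 26 at 24 h, 11 to 23 in GRANTA519, 13 to 25 in JEKO1, 12 to 24 in MAVER1 and 4 to 14 in REC1. The 2 genes that differed between lines numbered 0 to 6 with 1 line or time left out, 6 without background correction, 6 with an offset of 50, 7 with the series matrix, 1 with no detection filter and 4 among genes detected on all 40 arrays. The 6 genes whose effect differed between 24 h and 2 h numbered 2 to 8 with 1 line or time left out, 12 without background correction, with an offset of 50 and among genes detected on all 40 arrays, and 11 with the series matrix. The matching counts over all genes are not given for these settings. Whether these shifts are particular to the genes studied here was not tested, nor were their causes. RefSeq lists pseudogene copies of KDM3A, PRMT5 and KMT2C, among others, and whether their probes also bind these was not tested.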
